A study of Drosophila melanogaster with 4 samples.

Results

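The regions described here are the Rib-GFP peaks on the Y chromosome and on the scaffolds of the Drosophila melanogaster genome assembly dm6 that have no place on a main chromosome arm. They were taken by sequence name: every peak on chrY, on a scaffold assigned to a chromosome without a position, or on a scaffold with no chromosome at all (chrUn). This gave 994 of the 5103 peaks in the deposited lists. Of these, 947 were among the 4196 peaks of the fkh-Gal4 list and 47 among the 907 peaks of the sage-Gal4 list. The scaffolds with a chromosome name all belonged to X or Y.

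Ribbon (Rib) is a DNA-binding transcription factor of the BTB family that embryos need to lengthen the tubes of the salivary gland and trachea. ChIP-seq read the positions of a GFP-tagged Rib in fkh-GAL4::UAS-rib-GFP embryos and in sage-GAL4::UAS-rib-GFP embryos of stages 11 to 16, with an antibody to GFP. In both genotypes the tagged protein comes from a UAS transgene switched on by the Gal4 driver, and the antibody sees no untagged Rib. The chromatin came from whole embryos, and the tagged protein is made in the cells where the driver is active. Which of these cells a peak comes from is not known. The 3 collections per genotype were merged into 1 list, which leaves no replicate error. No difference below carries a test. Intervals are exact 95% binomial (Clopper-Pearson) intervals that count peaks as units and cover counting error only. They treat peaks as independent, which neighbouring peaks or copies of a repeat need not be. Whether intervals overlap is thus a description and not a test of the drivers.

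The Y chromosome and the unplaced scaffolds of the fly are mostly heterochromatin, the tightly packed part of the genome. They hold tandem satellite repeats, remnants of transposable elements, the ribosomal RNA gene arrays of X and Y, and a handful of genes used in making sperm. Copies of a repeat are alike or nearly so, and a short read from such a copy may fit several places. How such reads were placed is not given in the sources used here, so which copy a peak belongs to is uncertain throughout.

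Peaks on these sequences made up a larger share of the fkh-Gal4 list, and most of that surplus lay on the scaffolds of X. They were 22.6% of the fkh-Gal4 list (947 of 4196, interval 21.3 to 23.9) and 5.18% of the sage-Gal4 list (47 of 907, interval 3.83 to 6.83), a ratio of shares of 4.36. The lists differ in length, and among the 907 widest fkh-Gal4 peaks, as many as the sage-Gal4 list holds, the share was 12.8% (116 of 907). The scaffolds of X held 556 fkh-Gal4 peaks, which were 13.3% of that list (12.2 to 14.3), and 3 sage-Gal4 peaks, which were 0.331% (0.0683 to 0.964). The intervals of the drivers did not overlap, which is not a test, and the ratio of these shares was 40.1. The part that the placement of reads among repeat copies has in this difference was not tested. On the placed arm of X the shares were close to each other, with 508 fkh-Gal4 peaks (12.1%) and 119 sage-Gal4 peaks (13.1%). With the scaffolds of X left out of both lists, an alternative chosen after seeing the data, the share of the rest fell to 10.7% for fkh-Gal4 and stood at 4.87% for sage-Gal4.

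The other groups differed less between the drivers. chrY held 127 fkh-Gal4 peaks (3.03% of the list, 2.53 to 3.59) and 9 sage-Gal4 peaks (0.992%, 0.455 to 1.88). The scaffolds of Y held 36 fkh-Gal4 peaks (0.858%, 0.602 to 1.19) and 2 sage-Gal4 peaks (0.221%, 0.0267 to 0.794), with overlapping intervals. For chrUn the counts were 228 fkh-Gal4 peaks (5.43%, 4.77 to 6.16) and 33 sage-Gal4 peaks (3.64%, 2.52 to 5.07), and the intervals overlapped here too, whereas on chrY they did not. The ratio of shares was 3.05 for chrY, 3.89 for the scaffolds of Y and 1.49 for chrUn. Seen within the members alone, the scaffolds of X gave 58.7% of the fkh-Gal4 peaks and 6.38% of the sage-Gal4 peaks, while chrUn gave 24.1% of the fkh-Gal4 peaks and 70.2% of the sage-Gal4 peaks. The read depth of the lists is unknown, and a peak that is missing from the shorter list is not shown to be missing from the embryos.

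**Figure D1:**
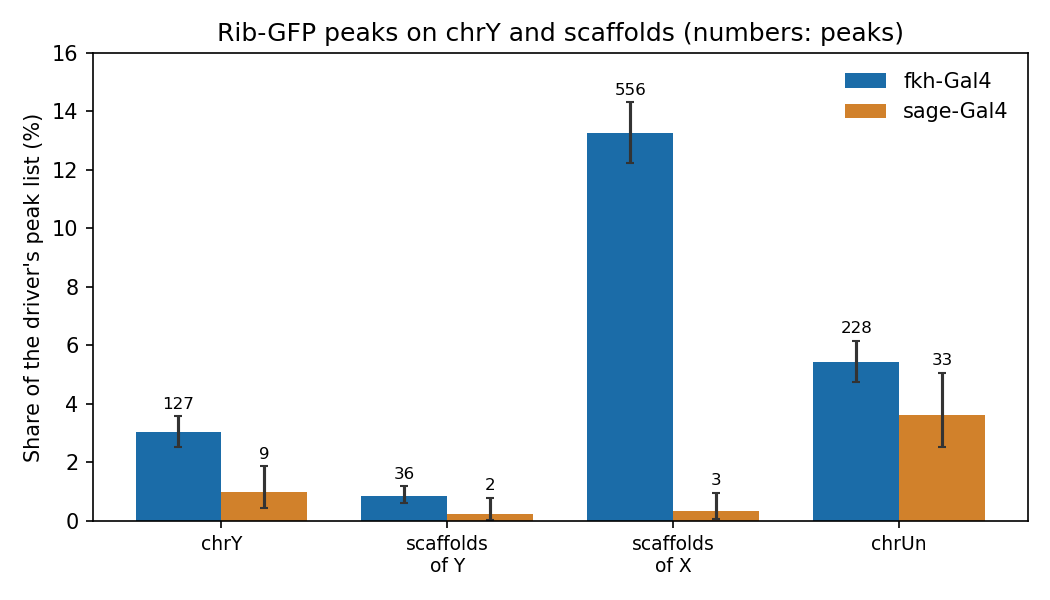
Share of each driver's peak list (y axis, %) on chrY, on the scaffolds of Y, on the scaffolds of X and on chrUn, with fkh-Gal4 left of sage-Gal4. Error lines are exact 95% binomial intervals over peaks and the numbers are peak counts; the bar for fkh-Gal4 on the scaffolds of X, at 13.3%, stands beside 0.331% for sage-Gal4.

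The fkh-Gal4 peaks were spread thinly over a great many scaffolds. They lay on 440 sequences, of which 231 carried a single peak, and the sage-Gal4 peaks lay on 32 sequences, of which 26 carried 1. Both drivers had a peak on 23 sequences, which is 5.23% of the fkh-Gal4 sequences and 71.9% of the sage-Gal4 sequences. After chrY, the sequences richest in fkh-Gal4 peaks were the scaffolds chrUn_CP007120v1 with 25 peaks, chrUn_CP007087v1 with 12, chrX_DS483903v1_random with 8 and chrX_DS484364v1_random with 7. None of these 4 scaffolds held a sage-Gal4 peak. The sequences richest in sage-Gal4 peaks after chrY were chrUn_DS483785v1 and chrUn_DS485998v1 with 3 each, and chrUn_CP007082v1 and chrUn_CP007083v1 with 2 each. chrUn_DS486005v1 also had 2. Each of the 5 had fkh-Gal4 peaks too, between 2 and 3.

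The scaffold with the most peaks is the one that holds the ribosomal RNA genes, and its peaks formed a regular ladder in front of those genes. Ribosomal RNA is transcribed by RNA polymerase I as a long precursor (pre-rRNA) from tandem units on X and Y, and the spacers between the units are known to consist largely of short repeats with copies of the promoter. The gene table gives 21 entries with the location "X; Y" and without a scaffold name; they were read as positions on chrUn_CP007120v1, the ribosomal DNA scaffold of this assembly, which is knowledge of the assembly and not a statement of the table. All 25 peaks there came from the fkh-Gal4 list, against 0 in the sage-Gal4 list. None of the 25 overlapped an annotated gene or pseudogene.

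With a break of 2 kb between tracts as the rule, the 25 fkh-Gal4 peaks fell into 4 tracts. Of these, 3 stopped just short of a pre-rRNA gene. Distances between tracts do not enter the spacing given below. The first tract (40570 to 42402) had 8 peaks and ended 220 bp before pre-rRNA:CR45845, which starts at 42623. A second tract (53606 to 54890) had 5 peaks and ended 213 bp before pre-rRNA:CR45846, which starts at 55104. A further tract (64989 to 66581) had 7 peaks and ended 225 bp before pre-rRNA:CR45847, which starts at 66807. The last tract (75526 to 76881) had 5 peaks, began 601 bp after the end of pre-rRNA:CR45847 and has no annotated gene beyond it. In each unit the 18S gene lies nearest to the annotated start, and since 18S comes first in the precursor, these 3 tracts lie on the side where transcription begins. The table gives no strand, and the last tract lies past the far end of its nearest annotated gene.

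Within the tracts the peaks followed each other at an almost constant distance. The median distance from centre to centre was 240 bp (quartiles 230 and 258.5), and 19 of the 21 distances were between 200 and 300 bp. The exceptions were 460 bp in the second tract and 510 bp in the last. The peaks were also in register between the units. The peak nearest the gene had its centre 278.5 bp before CR45845, 270 bp before CR45846 and 279 bp before CR45847, a spread of 9 bp. The next peak stood at 514, 532 and 519 bp, the third at 772.5, 766.5 and 751.5 bp, and the fourth at 998, 995.5 and 1000 bp. The fifth peak stood at 1256 and 1254 bp before CR45845 and CR45847, whereas before CR45846, after the longer step, it came at 1455.5 bp, where CR45847 had its next peak, at 1455 bp. Because the units are copies of each other, the agreement between them is not 3 independent observations. Peak widths there ran from 73 to 174 bp, with a median of 116 bp.

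**Figure D2:**
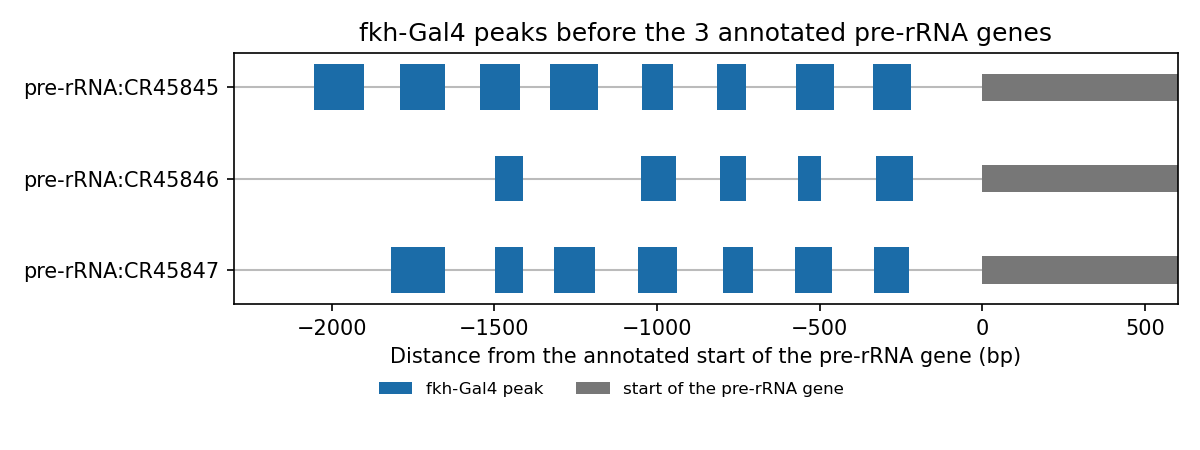
The fkh-Gal4 peaks (blue, drawn to scale) before the 3 annotated pre-rRNA genes, by their distance in bp from the gene's annotated start at 0 (grey, first part of the gene). The 4 peaks nearest each gene line up between the genes to within 4.5 to 21 bp; sage-Gal4 had no peak on this scaffold.

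On the scaffolds of X the fkh-Gal4 peaks were small and close together. The 556 peaks lay on 271 scaffolds: 106 of these had 1 peak, 95 had 2, 38 had 3 and 21 had 4, and the highest count was 8. The 165 scaffolds with at least 2 peaks held 450 of the 556. The scaffolds themselves are short, as far as peaks show, since on 269 of the 272 that carried a peak of either driver the last peak ended before position 5000. The median width was 106.5 bp (quartiles 84 and 149.75), and only 2 of the 556 were wider than 400 bp.

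The spacing on these scaffolds was tight but not as even as on the ribosomal RNA scaffold. The median distance between the centres of successive fkh-Gal4 peaks was 434 bp (quartiles 301 and 718.5, 285 distances). Of these distances, 111 (38.9%) lay from 200 up to 400 bp, against 254 of 3203 (7.93%) on 2L, 2R, 3L, 3R and X, and 246 (86.3%) were under 1 kb, against 700 (21.9%) on the arms. A peak had another peak of its list within 1 kb in 411 of 556 cases (73.9%, 70.1 to 77.5) on the scaffolds of X. It did so in 1196 of 3208 (37.3%, 35.6 to 39.0) on the arms and in 41.8% of the whole fkh-Gal4 list. Single arms ran from 29.0% on 3R to 50.2% on 2L, which holds the histone gene array. The other member groups were not above the arms in this way, with 27.6% on chrY, 11.1% on the scaffolds of Y and 37.7% on chrUn. Without the ribosomal RNA scaffold, chrUn had 30.0%. Peaks on a short scaffold cannot be far apart, and the part of scaffold size in these distances was not tested.

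The 3 sage-Gal4 peaks on scaffolds of X sat apart. They were a 62 bp peak on chrX_DS483669v1_random (11900 to 11961), a 74 bp peak on chrX_DS484081v1_random (1178 to 1251) and a 140 bp peak on chrX_DS485077v1_random (85 to 224). None of the 3 had another sage-Gal4 peak within 1 kb. Over chrY and all scaffolds, 8 of the 47 sage-Gal4 peaks did (17.0%, 7.65 to 30.8), all on chrUn, against 14.1% of the whole sage-Gal4 list. The peak on chrX_DS485077v1_random overlapped a 93 bp fkh-Gal4 peak (57 to 149) by 65 bp, the one meeting of the drivers on any scaffold of X.

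**Figure D3:**
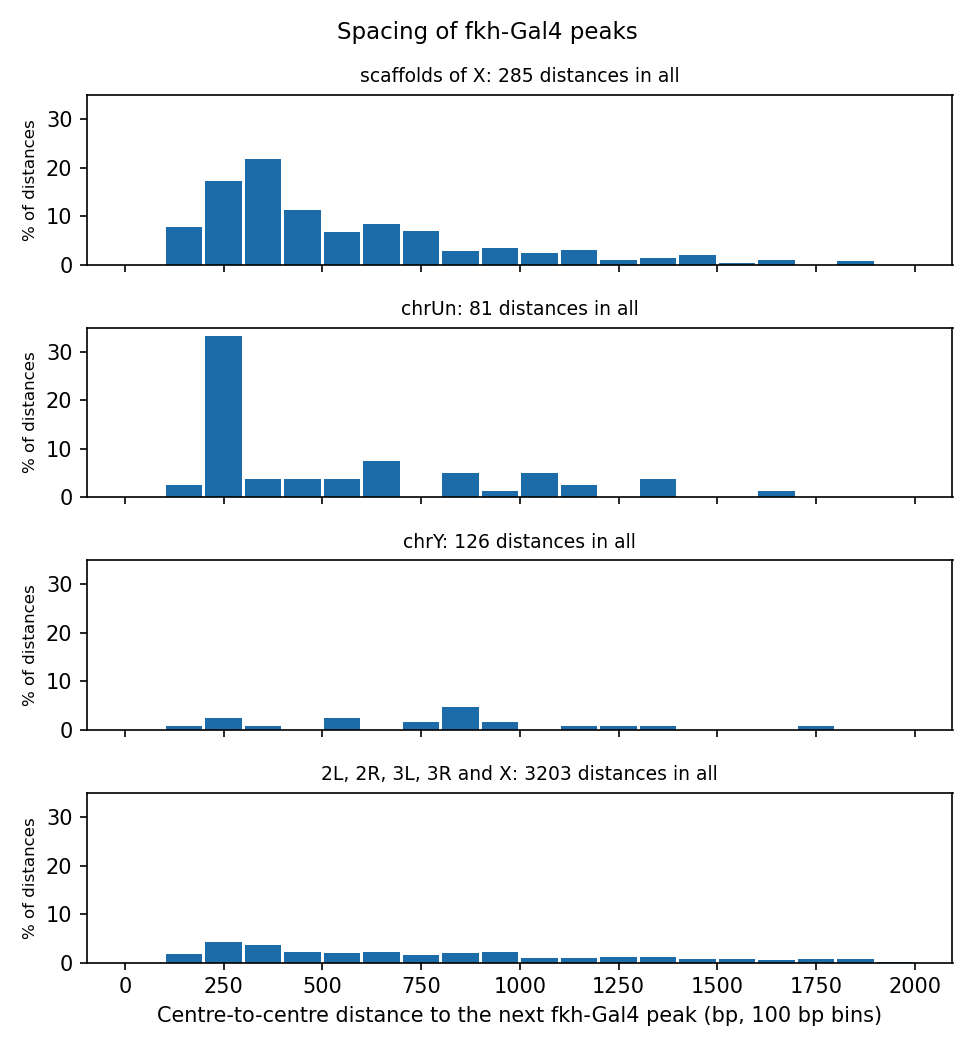
Distances in bp between the centres of successive fkh-Gal4 peaks (x axis, 100 bp bins up to 2000 bp), as a share of all distances (y axis, %), for the scaffolds of X, chrUn, chrY and the arms 2L, 2R, 3L, 3R and X. The scaffolds of X rise highest from 300 to 400 bp (21.8%), and chrUn from 200 to 300 bp (33.3%), where the ribosomal RNA scaffold gives 19 of its 27 distances.

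The Y chromosome was dotted with fkh-Gal4 peaks along nearly its whole sequence. The 127 peaks ran from 11444 to 3562613, and each of the 7 full windows of 500 kb had between 11 (1 to 500000) and 24 (1000001 to 1500000). The shorter last window, which ends at 3666928, had 5. Of the 37 windows of 100 kb, 2 had none, the median was 3 peaks and the highest was 10 (from 700001). The densest 100 kb in steps of 50 kb, a search added after the values were seen (1150001 to 1250000), held 15 fkh-Gal4 peaks between 85 and 264 bp wide, no sage-Gal4 peak and no annotated gene. Of the 126 distances between successive peak centres on chrY, 10 lay from 750 up to 950 bp, more than the 8 that were shorter, while the median was 19032 bp. That range too was chosen after the distances were seen.

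Few of the Y peaks were at genes. Of the 127 fkh-Gal4 peaks, 35 (27.6%, 20.0 to 36.2) lay within 1 kb of an annotated gene, against 72.1% of all fkh-Gal4 peaks on chromosomes 2, 3, 4, X and Y. Of the 9 sage-Gal4 peaks, 3 (33.3%, 7.49 to 70.1) did so, against 83.8% for the sage-Gal4 peaks on those chromosomes. Inside gene bodies lay 26 of the fkh-Gal4 peaks (20.5%, 13.8 to 28.5), all of them in 6 long genes, while gene bodies cover 30.0% of the Y sequence up to the end of its last gene.

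The Y genes with fkh-Gal4 peaks in their bodies are very long genes, transcribed in the male germ line. kl-3, kl-2 and kl-5 encode dynein heavy chains, the motors of the sperm tail. kl-3 (Y, 336381 to 563165, 227 kb) had 7 fkh-Gal4 peaks in its body, and 4 of them stood together in pairs, at 349739 to 349818 and 349927 to 350112, and at 352822 to 353163 and 353378 to 353661. A further pair lay at 561463 to 561607 and 561673 to 561878, close to the other end of the gene. kl-2 (573088 to 664173, 91.1 kb) had 4 fkh-Gal4 peaks, and kl-5 (22250 to 137486, 115 kb) had 2, the wider of 341 bp (124380 to 124720). The sage-Gal4 list had no peak in any of these 3 genes.

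WDY, which encodes a protein with WD40 repeats, and Ppr-Y were the Y genes met by both drivers. WDY (2273422 to 2487777, 214 kb) carried 7 fkh-Gal4 peaks. The largest of them, at 2448029 to 2448239 (211 bp), met the gene's 1 sage-Gal4 peak, at 2448166 to 2448248 (83 bp). Ppr-Y (1636574 to 1884846, 248 kb) had 5 fkh-Gal4 peaks, among them the widest of chrY, of 469 bp (1761395 to 1761863), and another of 403 bp (1642153 to 1642555). Its 1 sage-Gal4 peak, of 63 bp (1793603 to 1793665), met none of them. Per 100 kb of gene body the fkh-Gal4 peaks numbered 4.39 in kl-2, 3.27 in WDY, 3.09 in kl-3, 2.01 in Ppr-Y, 1.77 in ORY and 1.74 in kl-5. These rates rest on 1 to 7 peaks each, and the gene table gives no exons, so introns and exons could not be told apart. PRY (45.9 kb) and CCY (16.9 kb) had no peak in the body. Gene bodies together held 20.5% of the fkh-Gal4 peaks of chrY and cover 30.0% of its sequence up to the last gene's end. The rates therefore do not show a preference for these genes.

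The remaining Y genes had little or nothing. ORY (3561745 to 3618339), named for its resemblance to occludin, had 1 fkh-Gal4 peak of 266 bp (3562348 to 3562613) near an end. Pp1-Y1, a protein phosphatase gene (9833 to 10786), had no peak in its body and a 124 bp fkh-Gal4 peak 657 bp away (11444 to 11567). PRY, CCY, ARY, FDY and the phosphatase gene Pp1-Y2 had no peak in the body or within 1 kb in either list. Of the genes outside this chosen list, CG45766, a protein-coding gene, had a fkh-Gal4 peak 738 bp away (3303440 to 3303529), and 5 further fkh-Gal4 peaks lay within 1 kb of pseudogenes. The Su(Ste) repeats make the small RNAs that silence the Stellate genes of X in the testis. Of the 27 copies placed on chrY, 1 had fkh-Gal4 peaks within 1 kb, at 481 and 171 bp from Su(Ste):CR42422, and 2 were within 1 kb of the sage-Gal4 peak at 1032410 to 1032469, which lay inside Su(Ste):CR42415. A further 7 copies, and 3 other Y entries, have low positions that end at 3374 at most. They were taken to lie on a scaffold that the table does not name and were not analysed here. That reading is not a statement of the table.

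**Figure D4:**
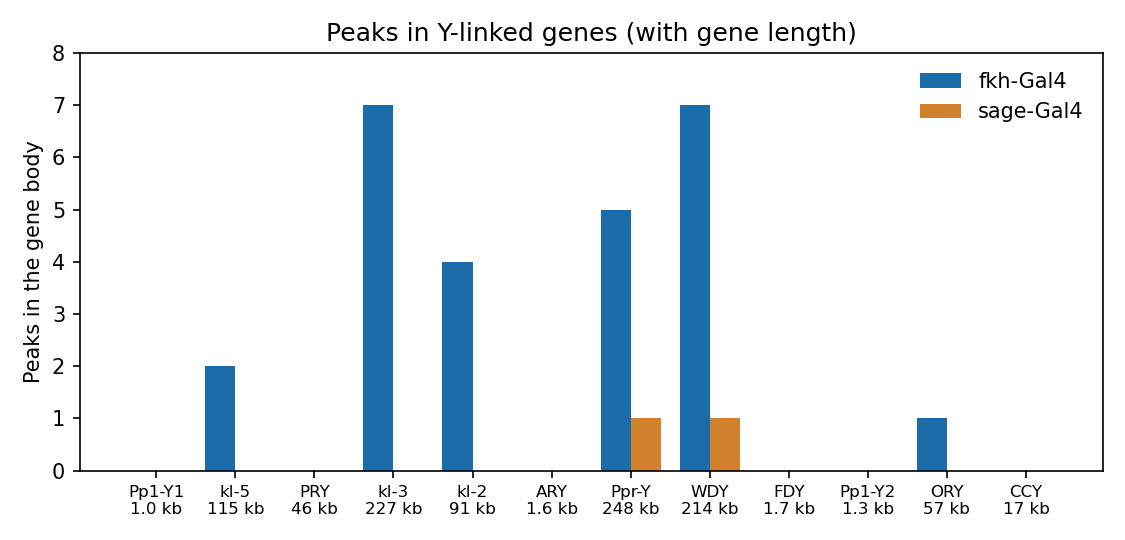
Number of peaks in the body of each of 12 chosen Y-linked genes, out of 113 annotated on chrY, fkh-Gal4 left of sage-Gal4, in the order of the genes along the chromosome and with gene length in kb below each name. The long genes kl-5, kl-3, kl-2, Ppr-Y, WDY and ORY carry all 26 fkh-Gal4 peaks, between 1 and 7 each; sage-Gal4 has 1 peak each in Ppr-Y and WDY.

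The overlap between drivers depended on which list was asked. Of the 947 fkh-Gal4 peaks, 31 overlapped a sage-Gal4 peak by at least 1 bp (3.27%, 2.23 to 4.61), against 14.0% of the whole fkh-Gal4 list and 550 of 3208 peaks on the major arms (17.1%, 15.9 to 18.5). Of the 47 sage-Gal4 peaks, 33 overlapped a fkh-Gal4 peak (70.2%, 55.1 to 82.7), against 67.8% of the whole sage-Gal4 list and 577 of 852 on the arms (67.7%, 64.5 to 70.9). The intervals for chrY and scaffolds and for the arms overlapped for sage-Gal4 and lay apart for fkh-Gal4. However, a fkh-Gal4 share is limited by the number of sage-Gal4 peaks. That number was 47 beside 947 fkh-Gal4 peaks here, 852 beside 3208 on the arms and 3 beside 556 on the scaffolds of X. The lower fkh-Gal4 shares therefore do not by themselves show poorer agreement between the drivers. Among the groups, the fkh-Gal4 share was lowest on the scaffolds of X, at 1 of 556 (0.180%, 0.00455 to 0.998). It was 7 of 127 on chrY (5.51%, 2.24 to 11.0), 2 of 36 on the scaffolds of Y (5.56%, 0.680 to 18.7) and 21 of 228 on chrUn (9.21%, 5.79 to 13.7). Without the scaffolds of X it came to 30 of 391 (7.67%).

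The sage-Gal4 share was 7 of 9 on chrY (77.8%, 40.0 to 97.2), 2 of 2 on the scaffolds of Y, 1 of 3 on the scaffolds of X and 23 of 33 on chrUn (69.7%, 51.3 to 84.4). When each pair had to share 50% of both peaks, 16 peaks of each list remained paired, which is 1.69% of the fkh-Gal4 and 34.0% of the sage-Gal4 peaks. With the fkh-Gal4 list limited to its 907 widest peaks, 17 of its 116 members overlapped a sage-Gal4 peak (14.7%), and 19 of the 47 sage-Gal4 members overlapped one of these fkh-Gal4 peaks (40.4%). Whole-list shares under the 50% rule and for the cut list are not given here. Whether the members differ from other peaks at these settings is therefore not known.

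**Figure D5:**
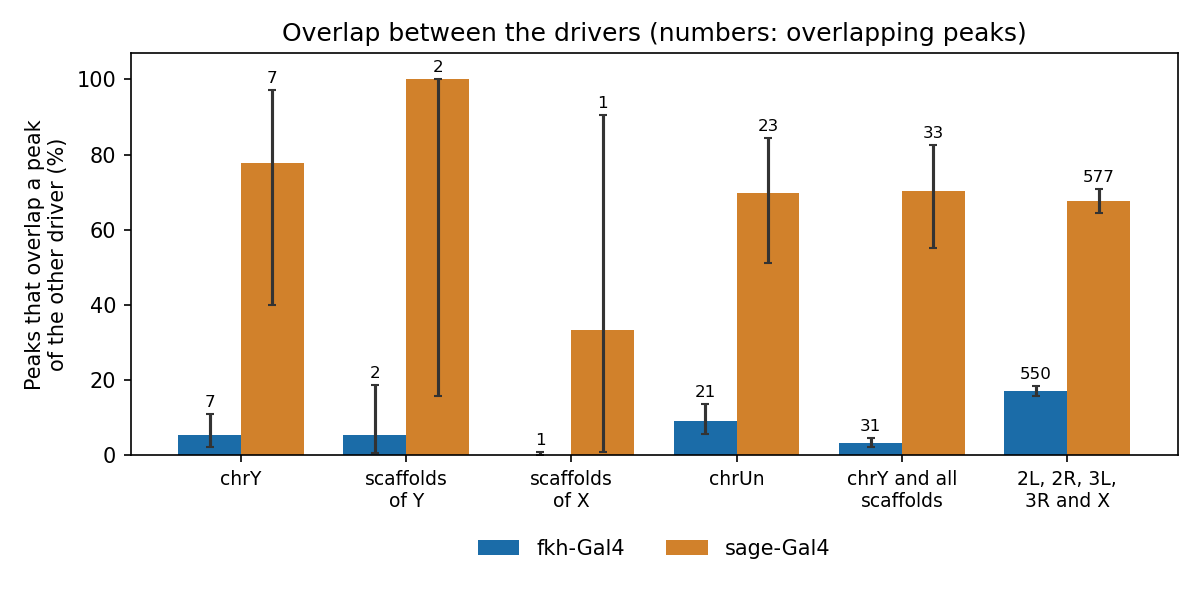
Share of each driver's peaks that overlap a peak of the other driver (y axis, %), by sequence group and for the major arms, fkh-Gal4 left of sage-Gal4. Error lines are exact 95% binomial intervals over peaks and the numbers are overlapping peaks. The sage-Gal4 share stands near 70.2% over chrY and all scaffolds and 67.7% on the arms, the fkh-Gal4 share at 3.27% and 17.1%. The fkh-Gal4 shares are limited by the smaller number of sage-Gal4 peaks.

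Where the drivers met, the fkh-Gal4 peak usually enclosed the sage-Gal4 peak. The 33 pairs had a median width of 211 bp for fkh-Gal4 and 97 bp for sage-Gal4. The fkh-Gal4 peak was the wider in 29 pairs (87.9%), and the sage-Gal4 peak lay wholly inside it in 26 (78.8%). On the major arms the corresponding figures were 435 (75.3%) and 303 (52.4%) of 578 pairs. The 5 widest fkh-Gal4 peaks with a partner were all on chrUn. On chrUn_DS485614v1 the fkh-Gal4 peak was 430 bp (121 to 550) and the sage-Gal4 peak 336 bp (180 to 515), the widest sage-Gal4 peak among the members. On chrUn_DS485833v1 they were 400 bp (181 to 580) and 245 bp (292 to 536). On chrUn_DS485998v1 a single fkh-Gal4 peak of 392 bp (112 to 503) took in 2 sage-Gal4 peaks, of 174 bp (148 to 321) and 89 bp (392 to 480). On chrUn_DS485944v1 they were 387 bp (124 to 510) and 320 bp (139 to 458), and on chrUn_DS483972v1 346 bp (75 to 420) and 307 bp (86 to 392). Each of these sage-Gal4 peaks lay inside its partner. The gene table places no gene on these scaffolds by name, so nothing can be said of what they hold.

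The 7 meeting places on chrY lay between positions 728603 and 2713167. The widest pair was a 320 bp fkh-Gal4 peak (728603 to 728922) around a 120 bp sage-Gal4 peak (728651 to 728770), followed by 228 bp (1308511 to 1308738) around 118 bp (1308590 to 1308707) and by the pair in WDY. At 1515772 to 1515888 a 117 bp fkh-Gal4 peak enclosed an 86 bp sage-Gal4 peak, and at 978353 to 978462 one of 110 bp enclosed one of 59 bp. An 81 bp fkh-Gal4 peak (2713087 to 2713167) enclosed one of 69 bp. At 1 place the order of widths was turned round, with 90 bp for fkh-Gal4 (1132810 to 1132899) and 106 bp for sage-Gal4 (1132788 to 1132893). Apart from the pair in WDY, none of the 7 lay within 1 kb of an annotated gene. The 2 sage-Gal4 peaks of chrY with no partner were those in Su(Ste):CR42415 and Ppr-Y, 60 and 63 bp wide.

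Peaks on these sequences were narrower than on the arms, in both lists. The median width was 109 bp (quartiles 85 and 157) for the 947 fkh-Gal4 peaks, against 127 bp (90 and 202) for 3208 on the arms. For the 47 sage-Gal4 peaks it was 83 bp (70 and 112.5), against 103 bp (77 and 141) for 852 on the arms. Peaks over 400 bp numbered 10 of 947 among the fkh-Gal4 members and 228 of 3208 on the arms, and the sage-Gal4 list had none. Of the 228, 91 lay on 2L, the arm with the histone gene array, where the fkh-Gal4 median width was 141 bp. On the other arms it ran from 118 bp (3R) to 129 bp (2R). The fkh-Gal4 median was 106.5 bp on the scaffolds of X, 114 bp on chrUn, 116 bp on chrY and 120.5 bp on the scaffolds of Y. The last of these lay within the range of the single arms, and that of chrY close to it. For sage-Gal4 the group medians ran from 74 bp (scaffolds of X, 3 peaks) to 89.5 bp (scaffolds of Y, 2 peaks), and the lowest single arm had 95 bp (2R). The shortest peak was 70 bp in the fkh-Gal4 list and 57 bp in the sage-Gal4 list, so widths start from a different floor in each list. Among fkh-Gal4 members the 31 that overlapped a sage-Gal4 peak had a median width of 208 bp and the other 916 of 108 bp. The arms showed a difference in the same direction, with 172 bp for overlapping and 118 bp for other fkh-Gal4 peaks. Within the members the groups were not alike. On chrUn these medians were 208 and 109 bp, whereas on chrY they were 117 and 115.5 bp. The 2 overlapping fkh-Gal4 peaks on the scaffolds of Y had a median of 244 bp. The 1 on the scaffolds of X was 93 bp wide. The part of width in the overlap was not tested.

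The widest fkh-Gal4 members lay on chrUn_CP007081v1 (87895 to 88731, 837 bp), chrUn_DS484933v1 (537 to 1188, 652 bp), chrUn_DS484484v1 (1431 to 1968, 538 bp), chrY_CP007111v1_random (29953 to 30475, 523 bp) and in Ppr-Y. None of these 5 overlapped a sage-Gal4 peak. The 5 widest sage-Gal4 members, between 245 and 336 bp and all on chrUn, each overlapped a fkh-Gal4 peak. On the scaffolds of Y, both sage-Gal4 peaks lay inside a fkh-Gal4 peak: 80 bp inside 216 bp on chrY_DS484250v1_random, where the fkh-Gal4 peak ran from 2171 to 2386, and 99 bp inside 272 bp on chrY_DS485696v1_random, where it ran from 104 to 375.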

How the data were processed

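The data are ChIP-seq peak lists for Rib-GFP, 1 merged list for each of 2 drivers; the 2 input samples were not analysed here. Per the labels, the 3 collections of each genotype were merged. Per the submitters' processing notes, the tools were BWA and MACS2 2.1.0.20140616, with build dm6. Threshold, filters and any use of the inputs: not given in the sources used here. The deposited files hold 3 columns (sequence, start, end) and no other value such as a count, height, score or p-value, so depth is unknown. Starts were changed to a 1-based count. Peaks overlap when they share at least 1 bp; a neighbour or gene is near within 1 kb, edge to edge. Genes came from a RefSeq table of the same assembly (Release 6 plus ISO1 MT) without strand or exons; no genome sequence was used, so none is printed. Overlap, merging and interval code (Python 3.11.15, scipy 1.17.1) was tested on simulated data. Alternatives were wider peaks only, peaks merged within 500 bp, other overlap rules and windows, a fkh-Gal4 list cut to 907 peaks, and left-out sequences.

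The members, lists and rules were chosen with earlier results of these data known. Named items are the Y genes and rRNA genes, the 5 sequences with most peaks per list, all sage-Gal4 peaks of chrY, and the 5 widest peaks and pairs; others are marked as chosen after their values were seen or stand as examples of a count. The table's 5S rRNA genes (100) all lie outside these sequences.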

Additional observations from a re-analysis of the deposited data

How the results depend on the processing

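Of 53 recomputed values, 32 stayed inside the 95% interval of the reported one and 21 left it. Staying inside says less for sage-Gal4, whose intervals are wide, such as 7.49 to 70.1% for its chrY peaks at genes. Values without the ribosomal RNA scaffold could not move for sage-Gal4, which has no peak there. The order of the drivers held in each setting for the share of the list, the width and the neighbours. It held for the overlap too, but there the larger number of fkh-Gal4 members nearly fixes the order beforehand. Widths start from a different floor in each list. The share on chrY and scaffolds was 18.7% for fkh-Gal4 and 3.12% for sage-Gal4 with wider peaks only. For fkh-Gal4 it was 20.8% after merging within 500 bp, 20.2% without chrY, 12.8% among its 907 widest peaks and 10.7% without the scaffolds of X. The overlap with the other driver was 1.69% for fkh-Gal4 and 34.0% for sage-Gal4 by reciprocal overlap, and 14.7% and 40.4% with the 907 widest fkh-Gal4 peaks. It was 85.7% for sage-Gal4 with wider peaks only (12 of 14) and 7.67% for fkh-Gal4 without the scaffolds of X. Whole-list overlap shares at these settings are not given here, so whether the members differ from other peaks there is not known. The fkh-Gal4 median width was 134 bp after merging and 115 bp without the scaffolds of X. Of the 947 fkh-Gal4 members, 536 (56.6%) had a neighbour within 1 kb. That share was 27.0% with wider peaks only, 61.1% without chrY and 32.0% without the scaffolds of X. It was 42.6% for a neighbour within 500 bp and 62.0% within 2 kb. With wider peaks only, 0 of 14 sage-Gal4 members had a neighbour and 0 of 3 on chrY lay near a gene, fewer than fkh-Gal4 (16 of 58, 27.6%), whereas with all peaks the sage-Gal4 share at genes was the higher. Fewer peaks enter several of these settings, and the cause of these moves was not tested. The alternatives without the scaffolds of X or the ribosomal RNA scaffold were chosen after seeing the data. No paired analysis was possible because each driver has 1 merged list. The files give no depth, so how far it limits either list is unknown.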
